A study of Mus musculus with 6 samples.

Results

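Transcripts of 10 genes of endoplasmic reticulum (ER) stress and protein folding in the secretory pathway were followed in single mouse macrophages with and without the cohesin subunit Rad21. The genes were taken by name and not by a filter on their measured values, although earlier results of these data were known. All 10 were among the 18429 genes of the count matrix. They are Hspa5, Hsp90b1, Calr, Sdf2l1, Pdia4, Pdia6, Herpud1, Xbp1, Atf4 and Ddit3. Bone marrow was cultured in medium with L929-conditioned supernatant to give bone marrow-derived macrophages, and single sorted cells were profiled by MARS-seq, which counts transcripts by unique molecular identifiers (UMIs). Both genotypes carried Rosa26 creERT2/creERT2, a tamoxifen-inducible Cre expressed from a broadly active locus, on a mixed genetic background, and differed in Rad21, which was WT/WT in wild-type and lox/lox in Rad21-/- cells. Cells of both genotypes received 200 nM 4-hydroxy-tamoxifen at 96 h and were used on day 7. They were left untreated or given 10 ng/ml LPS, a bacterial cell wall component from Salmonella typhosa, for 2 h or for 8 h. Loss of Rad21 was therefore induced in culture.

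The 6 combinations of genotype and time were each 1 sample. No difference therefore had a replicate check, no test was run, and every interval below covers counting error only. The deposited matrix held 1362 cells, of which 17 wells with more than 25000 UMIs were left out. These wells supplied between 1.71% and 45.5% of the UMIs of a sample, the most in wild-type cells at 2 h. The remaining 1345 cells had median depths of 5544 to 7043 UMIs, and the samples held between 181 and 267 cells and between 1197415 and 1734640 UMIs. Cells came from 24 library pools. Each pool held a single time point, so that time and pool cannot be told apart, whereas 23 pools held both genotypes and allowed genotypes to be compared within a pool. No well barcode of a pool was shared between genotypes (0 cases). Levels are given as CPM, the share of a gene among all UMIs of a sample, scaled to a total of 1000000. Rad21 stood at 34.1 to 64.3 CPM in the 3 wild-type samples and at 5.46 to 8.01 CPM in the 3 Rad21-/- samples. Tnf, an early LPS response gene, went from 7.61 CPM in untreated to 3058 CPM at 2 h in wild-type cells and from 3.03 to 1160 CPM in Rad21-/- cells. Cxcl1, a chemokine gene induced by LPS, went from 0 to 2294 and 444 CPM at 2 and 8 h in wild-type cells and from 0 to 1871 and 782 CPM in Rad21-/- cells. Macrophage markers fitted the label, with 10 of 10 detected in every sample and a summed level of 11322 to 16576 CPM.

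The ER folds proteins that are to be secreted or inserted into membranes. When unfolded proteins accumulate, the sensors PERK, IRE1 and ATF6 start the unfolded protein response, which slows translation, splices Xbp1 mRNA into its active form and raises the transcription of chaperones and degradation factors. PERK signalling favours translation of Atf4, whose product activates Ddit3, also known as CHOP, a factor linked to cell death under lasting stress. Macrophages use this machinery for cytokine secretion and surface receptors, and LPS signalling is known to interact with it. UMIs at the 3′ end do not distinguish spliced from unspliced Xbp1, and Atf4 is controlled largely in translation, so the values below are mRNA levels and not the activity of either factor.

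The members fall into 4 kinds. Hspa5 encodes BiP, the ER Hsp70 chaperone (chromosome 2, 34772090 to 34776529, in GRCm38), Hsp90b1 encodes GRP94, the ER Hsp90 (chromosome 10, 86690841 to 86705444), and Calr encodes calreticulin, a calcium-binding chaperone of glycoproteins (chromosome 8, 84842088 to 84846931). Sdf2l1 (chromosome 16, 17130138 to 17132383) encodes an ER protein that works with BiP and its J-domain partners. Pdia4 (chromosome 6, 47796141 to 47813512) and Pdia6 (chromosome 12, 17266589 to 17284785) encode protein disulfide isomerases. Herpud1 (chromosome 8, 94386429 to 94395371) encodes a membrane component of ER-associated degradation, the disposal route of misfolded proteins. Xbp1 (chromosome 11, 5520641 to 5525993), Atf4 (chromosome 15, 80255184 to 80257545) and Ddit3 (chromosome 10, 127290793 to 127296291) encode transcription factors of the response.

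The promoters of 5 members are shown because they hold a sequence known from promoters of stress-induced chaperone genes, the ER stress element (ERSE), or its variant ERSE-II. Each is a window of 200 bases from position -230 to -31, where -1 is the base before the RefSeq start of the gene, read on the strand of the gene in GRCm38.p6, with the motif in capitals. The windows are chr2:34771860-34772059 on the plus strand for Hspa5, chr10:86705475-86705674 on the minus strand for Hsp90b1, chr8:84846962-84847161 on the minus strand for Calr, chr12:17266359-17266558 on the plus strand for Pdia6 and chr8:94386199-94386398 on the plus strand for Herpud1.
Hspa5: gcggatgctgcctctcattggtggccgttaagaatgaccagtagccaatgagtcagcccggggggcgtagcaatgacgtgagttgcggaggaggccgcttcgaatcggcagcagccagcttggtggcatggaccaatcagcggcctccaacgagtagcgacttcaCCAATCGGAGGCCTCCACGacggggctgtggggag
Hsp90b1: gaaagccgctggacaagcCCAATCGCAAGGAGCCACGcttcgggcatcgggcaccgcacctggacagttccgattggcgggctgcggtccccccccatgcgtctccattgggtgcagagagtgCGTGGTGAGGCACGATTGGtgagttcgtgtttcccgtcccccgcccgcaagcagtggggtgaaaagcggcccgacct
Calr: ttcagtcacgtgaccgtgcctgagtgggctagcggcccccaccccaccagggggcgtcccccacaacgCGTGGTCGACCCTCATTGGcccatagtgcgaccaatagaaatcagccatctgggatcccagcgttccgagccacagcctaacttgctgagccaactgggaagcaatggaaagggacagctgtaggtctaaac
Pdia6: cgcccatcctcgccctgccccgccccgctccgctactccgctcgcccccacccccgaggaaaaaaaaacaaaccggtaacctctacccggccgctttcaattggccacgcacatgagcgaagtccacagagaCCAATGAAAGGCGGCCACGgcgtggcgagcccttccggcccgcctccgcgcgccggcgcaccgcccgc
Herpud1: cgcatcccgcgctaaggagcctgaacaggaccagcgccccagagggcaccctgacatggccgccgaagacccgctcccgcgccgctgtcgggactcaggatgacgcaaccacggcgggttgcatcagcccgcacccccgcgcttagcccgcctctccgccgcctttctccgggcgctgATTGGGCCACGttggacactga
The search used the letters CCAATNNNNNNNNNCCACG for ERSE, ATTGGNCCACG for ERSE-II and TGACGTGG for the unfolded protein response element, on both strands of 300 bases per promoter. ERSE and ERSE-II share the letters CCACG, and ATTGG is the reverse complement of CCAAT. ERSE was present in 39 of 32851 promoters (0.119%) and in 4 of the 10 members. It lay at -65 to -47 in Hspa5, at -98 to -80 in Pdia6, on the opposite strand at -162 to -144 in Calr, and in Hsp90b1 at -212 to -194 and, on the opposite strand, at -107 to -89. ERSE-II was present in 12 promoters (0.0365%), among them Herpud1 at -52 to -42. The third motif was in 222 promoters (0.676%) and in 0 of the members. These matches describe the letters in the window, not binding. Because the element is known from promoters of such genes, its count among the members is a description and not a test of enrichment.

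Hspa5, Atf4 and Ddit3 were lower in Rad21-/- than in wild-type macrophages at each time point, whereas Calr was lower in untreated Rad21-/- cells and higher at 8 h of LPS. Hspa5 was at 472 CPM in untreated wild-type cells, 453 at 2 h and 513 at 8 h, and at 266, 288 and 403 CPM in Rad21-/- cells. The 3 Rad21-/- values were below all 3 wild-type values. Atf4 was at 238, 255 and 288 CPM in wild-type cells, compared with 135, 147.4 and 177.6 CPM in Rad21-/- cells. The ranges of the genotypes again did not overlap. Ddit3 was at 134, 86.9 and 116.3 CPM in wild-type and at 53.4, 32.8 and 36.3 CPM in Rad21-/- cells, also without overlap. These were the members in which every Rad21-/- sample was below every wild-type sample. The share of all genes separated in this way is not given here, so the separation only describes these members. For Hspa5, the lowest wild-type sample (2 h) and the highest Rad21-/- sample (8 h) differed by 0.17 on the log2 scale (interval 0.006 to 0.33), which was the narrowest gap of the 3 genes.

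**Figure D1:**
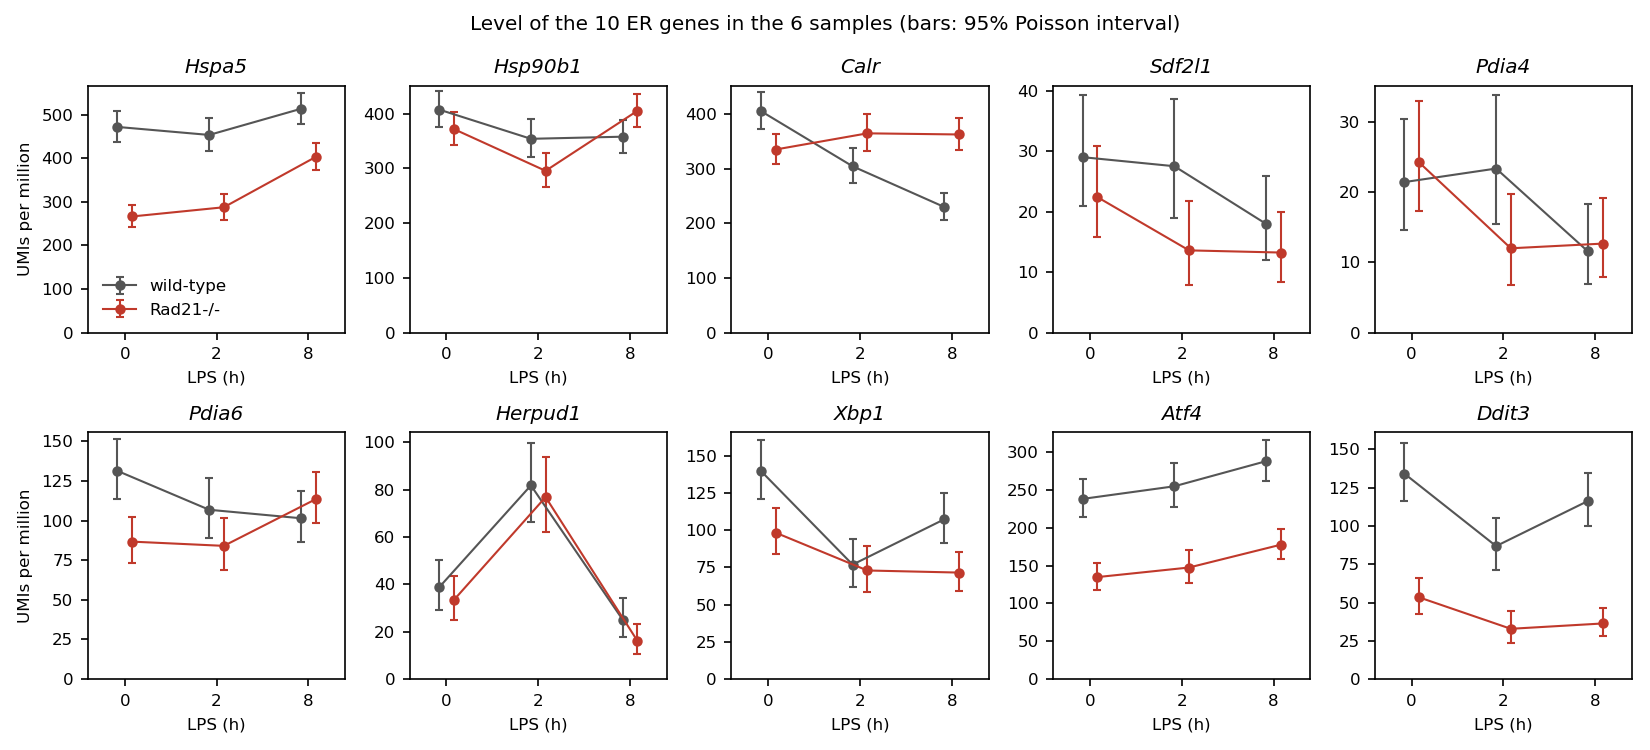
Level of each gene (CPM) against hours of LPS, in wild-type (grey) and Rad21-/- cells (red), 1 sample per point, with exact 95% Poisson intervals of the UMI sum. Hspa5, Atf4 and Ddit3 lay lower in all 3 Rad21-/- samples, Herpud1 peaked at 2 h in both genotypes, and Calr was lowest in wild-type cells at 8 h (230 CPM).

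The other members were less separated by genotype. Hsp90b1 was at 408, 354 and 358 CPM in wild-type and at 372, 296 and 405 CPM in Rad21-/- cells, and its samples interleaved. Calr was at 406, 305 and 230 CPM in wild-type cells, lower at each later time, and at 336, 365 and 363 CPM in Rad21-/- cells. Pdia6 was at 131.5, 107 and 102 CPM in wild-type cells, while Rad21-/- cells had 86.8, 84.1 and 113.6 CPM. No neighbours in the order of its 6 levels differed beyond counting error, and the highest and the lowest differed by 0.64 (0.29 to 1.002). Xbp1 was at 140, 76.8 and 107 CPM in wild-type and at 98.3, 72.9 and 71.5 CPM in Rad21-/- cells, highest in untreated cells of both genotypes. Herpud1 was at 38.7, 81.8 and 25.1 CPM in wild-type and at 33.4, 76.9 and 16.1 CPM in Rad21-/- cells. Both 2 h samples were above the other 4. Sdf2l1 was at 29.1, 27.6 and 17.99 CPM in wild-type and at 22.5, 13.6 and 13.3 CPM in Rad21-/- cells, from 17 to 42 UMIs per sample. Pdia4 was at 21.4, 23.4 and 11.6 CPM in wild-type and at 24.3, 12.0 and 12.7 CPM in Rad21-/- cells, from 15 to 40 UMIs. Counts this low left neighbouring levels of Sdf2l1 and Pdia4 within counting error, while the highest and lowest differed by 1.13 (0.37 to 1.93) for Sdf2l1 and 1.07 (0.23 to 1.96) for Pdia4.

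Genotypes were compared by the log2 ratio of CPM with 1 UMI added to each sample, with an exact conditional binomial interval. Genes with at least 100 UMIs over both samples were compared across the genome, and a gene past 1.5-fold was called higher or lower. Among untreated cells, 4 of the 8 members compared were lower in Rad21-/- cells, against 10.2% of the 5444 genes compared, and 0 were higher, against 5.12%. The 4 were Ddit3, Hspa5, Atf4 and Pdia6. Ddit3 was 2.50-fold lower in Rad21-/- cells (log2 ratio -1.32, interval -1.71 to -0.96) and ranked 5349 of 5444 genes from the highest ratio. Hspa5 was 1.77-fold lower (-0.82, -1.001 to -0.65), and Atf4 was 1.76-fold lower (-0.82, -1.07 to -0.57). Pdia6 was 1.51-fold lower (-0.60, -0.92 to -0.28), just past the threshold. Past 2-fold, Ddit3 was lower, against 3.69% of genes, and 0 members were higher, against 1.14%. The median log2 ratio was -0.55 over the 8 members and -0.02 over all genes compared. Xbp1 lay inside the threshold at -0.51 (-0.81 to -0.20), and so did Calr at -0.28 (-0.45 to -0.11), Hsp90b1 at -0.13 (-0.30 to 0.03) and Herpud1 at -0.21 (-0.78 to 0.35).

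At 2 h of LPS, 3 of 8 members were lower in Rad21-/- cells, against 9.36% of 4285 genes, and 0 were higher, against 10.1%. Ddit3 was 2.61-fold lower (-1.38, -1.96 to -0.87), Atf4 1.72-fold lower (-0.79, -1.06 to -0.52) and Hspa5 1.58-fold lower (-0.66, -0.85 to -0.46). Past 2-fold, Ddit3 was lower, against 4.32% of genes, and 0 members were higher, against 2.59%. The median was -0.30 over the members and 0.06 over all genes. Calr had the opposite sign at 0.26 (0.06 to 0.46). Xbp1 at -0.08 (-0.51 to 0.36) and Herpud1 at -0.09 (-0.51 to 0.33) had intervals that covered 0. With every cell thinned to 3800 UMIs, the value of Ddit3 at this time was -0.66, and with the deepest wells included that of Calr was 0.02 and that of Xbp1 -0.51.

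At 8 h, 2 of 7 members were lower in Rad21-/- cells, against 11.1% of 5312 genes, and 1 was higher, against 19.1%. Ddit3 was 3.17-fold lower (-1.66, -2.12 to -1.26) and ranked 5187 of 5312. Atf4 was 1.62-fold lower (-0.70, -0.91 to -0.48). Calr was 1.58-fold higher in Rad21-/- cells (0.66, 0.47 to 0.85), where the median of all genes was itself 0.19, and centred on that median it was 0.47, inside the threshold. Past 2-fold, Ddit3 was lower, against 5.7% of genes, and 0 members were higher, against 5.44%. Hspa5 was at -0.35 (-0.50 to -0.20), inside the threshold. Xbp1 was at -0.58 (-0.93 to -0.24), just inside the threshold of 0.585. Over the main and other settings it ran from -0.77 to -0.53, and with 1 pool left out from -0.72 to -0.48. Hsp90b1 was at 0.18 (0.02 to 0.34) and Pdia6 at 0.16 (-0.15 to 0.47), both close to the median of all genes.

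**Figure D2:**
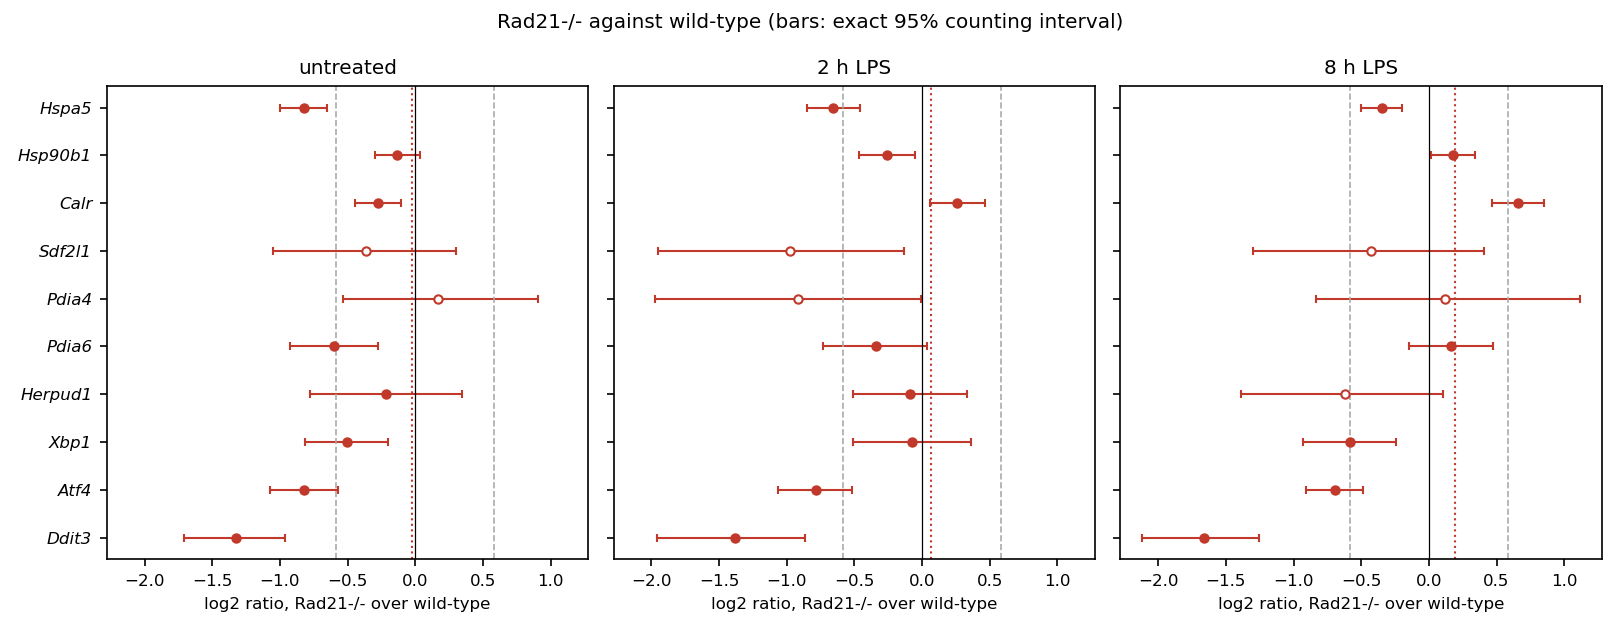
Log2 ratio of Rad21-/- over wild-type CPM for the 10 genes at each time point, with exact 95% counting intervals and 1 sample per genotype and time. Open points had under 100 UMIs over both samples, dashed lines mark 1.5-fold and the dotted line marks the median of all genes. Ddit3 lay at -1.32, -1.38 and -1.66, and Calr at -0.28, 0.26 and 0.66.

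The same direction was seen inside library pools for the members that differed most. Pools with 10 or more cells of both genotypes numbered 8 untreated, 4 at 2 h and 6 at 8 h, and they were parts of the same 6 labelled samples. The labels do not say how many mice or cultures these came from, so pools were not counted as replicates of a genotype. Ddit3 was lower in Rad21-/- cells in 8 of 8, 4 of 4 and 6 of 6 pools, with medians of -1.20, -1.27 and -1.30. Hspa5 was lower in 8 of 8, 4 of 4 and 5 of 6 pools, with medians of -0.86, -0.62 and -0.33. Atf4 was lower in 7 of 8, 4 of 4 and 6 of 6 pools, with medians of -0.96, -0.75 and -0.69. Xbp1 was lower in 8 of 8 untreated pools, in 3 of 4 at 2 h and in 6 of 6 at 8 h, with medians of -0.37, -0.31 and -0.64. Calr was lower in 8 of 8 untreated pools (-1.15 to -0.04), split 2 to 2 at 2 h and higher in 6 of 6 at 8 h (0.39 to 0.93). Pdia6 was lower in 8 of 8 untreated pools, in 3 of 4 at 2 h and in 2 of 6 at 8 h. Hsp90b1 was lower in 6 of 8 untreated pools and in 4 of 4 at 2 h (-0.61 to -0.06) and higher in 6 of 6 at 8 h, at 0.01 to 0.48. Sdf2l1 was lower in 4 of 4 pools of 2 h, at -1.89 to -0.26. Those values rest on few counts, as the 2 h samples held 17 Sdf2l1 UMIs in Rad21-/- and 33 in wild-type cells. Pdia4, Sdf2l1 and Herpud1 went both ways among the pools of untreated and of 8 h cells.

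**Figure D3:**
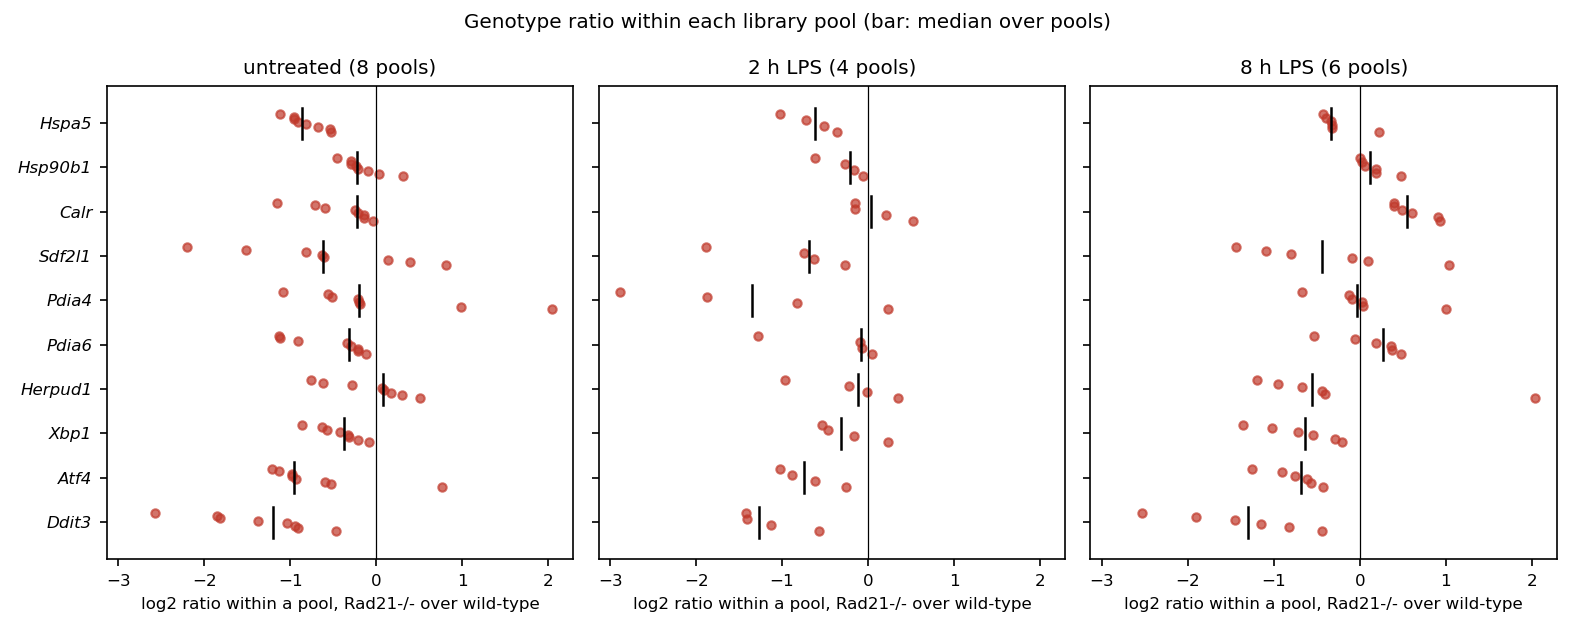
Log2 ratio of Rad21-/- over wild-type CPM within each library pool that had 10 or more cells of both genotypes. Each point is 1 pool and the bar is the median over pools. All points of Ddit3 lay below 0 at each time point, and all points of Calr lay below 0 in untreated and above 0 in 8 h pools.

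Other measures also differed between the genotypes. The 5 cycling markers summed to 363, 358 and 39.2 CPM in wild-type and to 173, 81.7 and 57.6 CPM in Rad21-/- cells, in the order untreated, 2 h and 8 h. In cells without a UMI of these markers the genotype ratio of Ddit3 was -1.83, -1.83 and -1.62, that of Hspa5 -0.86, -0.86 and -0.33, and that of Atf4 -0.79, -0.85 and -0.58. For B and plasma cells, 2 of 8 markers were in the matrix. Ighm was at 43.6, 15.03 and 12.9 CPM in wild-type and at 176, 156.2 and 153.9 CPM in Rad21-/- cells, while Ms4a1 was between 4.25 and 13.6 CPM in the 6 samples. The part of this signal in the results was not tested. The matrix held 2 of 8 markers of neutrophils, 2 of 6 of T and NK cells and 2 of 6 of dendritic cells. It held 3 of 4 markers of fibroblasts and 1 of 3 of mast cells and basophils. These summed to at most 32.6 CPM per type in any sample, which with so few markers does not show that a type was absent.

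Hspa5, Ddit3 and Pdia6 overlap other genes on the chromosome, and whether strand was used in counting is not given in the sources used here. Hspa5 shares 1921 bases with Rabepk, which had 12 to 21 UMIs per sample, against 359 to 799 for Hspa5. Ddit3 shares 77 bases with Mbd6 (13 to 34 UMIs) and 71 bases with Mars1, counted as Mars (13 to 40 UMIs), against 41 to 194 for Ddit3. Pdia6 shares 65 bases with Atp6v1c2, which was not analysed here.

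Cells with 5 or more Ddit3 UMIs were counted in wild-type samples and not in Rad21-/- samples, a pattern that was looked at after the sample totals were known. The 10% of cells with the most Ddit3 held 54.6%, 54.8% and 54.7% of its UMIs in wild-type samples and 45.5%, 56.1% and 66.7% in Rad21-/- samples. In untreated cells 40.3% of wild-type (exact Clopper-Pearson interval 34.05 to 46.9) and 28.1% of Rad21-/- cells (22.8 to 33.9) had at least 1 UMI. At 2 h the shares were 35.4% (28.4 to 42.8) and 20.1% (14.6 to 26.6), and at 8 h they were 38.7% (32.7 to 45.0) and 19.8% (14.8 to 25.7). With cells thinned to 3800 UMIs the shares were 29.8% and 18.6% untreated, 21.2% and 18.4% at 2 h and 30.4% and 13.4% at 8 h. The thinned difference was beyond counting error in untreated and 8 h cells, and at 2 h it was -2.83 percentage points (-11.6 to 6.09). Cells with 5 or more UMIs numbered 8, 2 and 5 in the wild-type samples and 0 in each Rad21-/- sample, where a count of 0 allows a share of up to 1.12% of untreated, 1.63% of 2 h and 1.35% of 8 h cells. The wild-type shares were 3.36% (1.46 to 6.52), 1.10% (0.13 to 3.93) and 1.98% (0.64 to 4.55). At 2 h the wild-type share was below the limit for Rad21-/- cells, and at 8 h its interval reached below that limit. The highest count in a cell was 14 in each wild-type and 3 in each Rad21-/- sample. The wild-type cells with 5 or more came from 6 of the untreated, 2 of the 2 h and 3 of the 8 h pools, with median depths of 6616.5, 9011 and 6452 UMIs. The variance over the mean of thinned counts was 2.64, 2.46 and 2.08 for the wild-type samples, against 1.13, 0.88 and 1.35 for Rad21-/-. Without the cells of 5 or more UMIs, which were chosen for high Ddit3, the genotype ratio was -0.90 (-1.31 to -0.51) untreated, -1.12 (-1.71 to -0.58) at 2 h and -1.33 (-1.79 to -0.90) at 8 h.

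**Figure D4:**
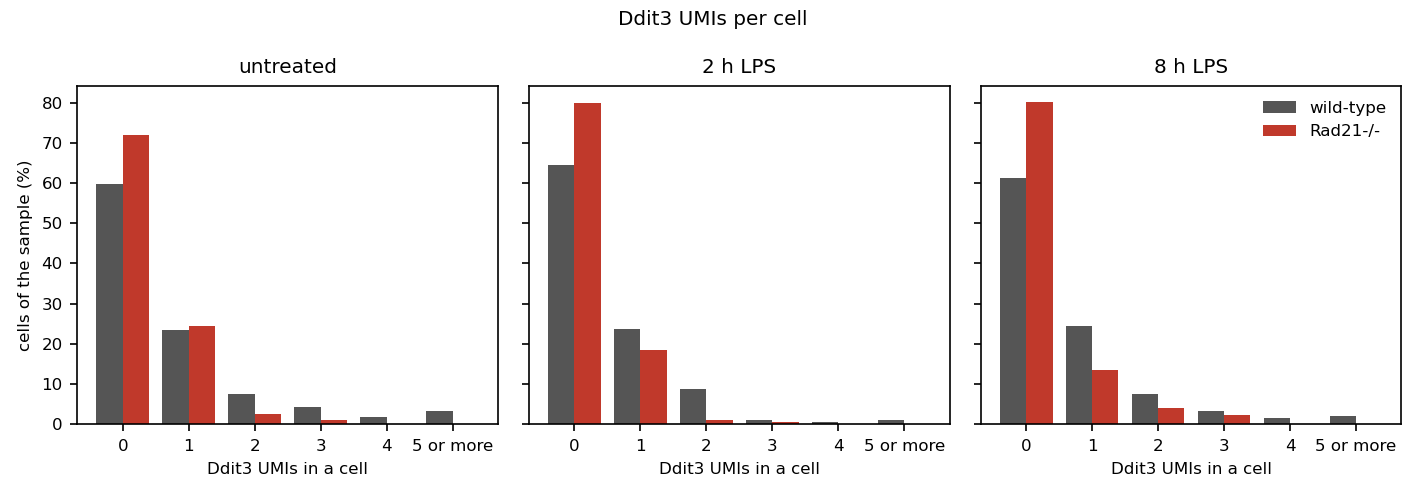
Percentage of the cells of each sample by number of Ddit3 UMIs per cell, in wild-type (grey) and Rad21-/- cells (red). Bars start at 0, cells were not thinned, and the class of 5 or more holds 8, 2 and 5 wild-type and 0 Rad21-/- cells.

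Hspa5 was found in 86.6%, 88.4% and 92.1% of wild-type cells and in 68.9%, 75% and 89.6% of Rad21-/- cells, so that the 8 h Rad21-/- share was above those of untreated and 2 h wild-type cells. Thinned, the shares were 82.7%, 79.4% and 84.8% against 52.3%, 64.5% and 76.1%, and each genotype difference was beyond counting error. The thinned difference was largest in untreated cells, at -30.4 percentage points (-38.5 to -21.6), and was -8.70 points (-16.3 to -1.17) at 8 h. Atf4 was found in 61.8%, 69.6% and 73.9% of wild-type and in 49.4%, 56.0% and 70.7% of Rad21-/- cells, and the 8 h difference of -3.19 percentage points (-11.2 to 4.82) was within counting error. The thinned shares of Atf4 were 55.0%, 55.0% and 63.8% against 39.5%, 42.1% and 47.8%. Each of these differences was beyond counting error, with the 8 h one at -16.1 percentage points (-25.2 to -6.63). All members but Pdia4, Sdf2l1 and Herpud1 had transcripts in at least 19.8% of the cells of every sample. Pdia4 was found in at most 14.9% of cells in any sample. All sorted cells were macrophages by label, so no cell type that should lack these genes was at hand to give the level of stray RNA.

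The response to LPS was compared with untreated cells of the same genotype, so the 2 h and 8 h comparisons share their untreated sample. The largest LPS ratio was that of Herpud1, which was higher at 2 h in both genotypes. Its level was 2.10-fold that of untreated cells in wild-type (1.07, 0.59 to 1.58) and 2.29-fold in Rad21-/- cells (1.19, 0.71 to 1.71), and the difference between both ratios was 0.13 (-0.54 to 0.79). The share of cells with Herpud1 went from 18.5% to 35.9% in wild-type and from 17.2% to 35.9% in Rad21-/- cells. The 4 wild-type pools of 2 h ranged from 57.7 to 121 CPM and the 8 untreated pools from 13.7 to 63.8 CPM. At 8 h Herpud1 was below untreated, at -0.62 (-1.26 to -0.01) in wild-type and -1.02 (-1.76 to -0.37) in Rad21-/- cells, from 39 and 28 UMIs.

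In wild-type cells at 2 h, 1 of 8 members was higher, against 7.37% of 4765 genes, and 2 were lower, against 9.28%. The higher member was Herpud1, and the lower ones were Xbp1 and Ddit3. Xbp1 was 1.81-fold lower (-0.85, -1.24 to -0.50), and its share of cells went from 50% to 30.9%. With the wells above 25000 UMIs included, its ratio was -0.34. Ddit3 was 1.54-fold lower (-0.62, -0.99 to -0.28), and this call was lost in 5 cases when 1 pool was left out, the furthest at -0.46 without an untreated pool of 27 cells, and its ratio was -0.29 with the deep wells included. Calr was at -0.41 (-0.61 to -0.22) and Hsp90b1 at -0.20 (-0.39 to -0.02), while Hspa5 and Atf4 had intervals that covered 0. Past 2-fold, Herpud1 was higher, against 3.63% of genes, and 0 members were lower, against 1.68%. The median was -0.25 over the members and -0.09 over all genes.

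In Rad21-/- cells at 2 h, 1 of 8 members was higher, against 7.87% of 5006 genes, and 1 was lower, against 4.93%. These were Herpud1 and Ddit3. Ddit3 was 1.61-fold lower (-0.68, -1.27 to -0.15), and it was at -0.14 with thinned cells. Xbp1 was at -0.42 (-0.82 to -0.05) and Hsp90b1 at -0.33 (-0.52 to -0.14). Past 2-fold, Herpud1 was higher, against 3.52% of genes, and 0 members were lower, against 0.899%. The median was 0.03 over the members and -0.01 over all genes.

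At 8 h the chaperones had different ratios in the genotypes. In wild-type cells, 0 of 7 members were higher, against 15.3% of 5131 genes, and 1 was lower, against 25.3%. This was Calr, at 1.76-fold below untreated (-0.82, -1.01 to -0.63), with a share of cells that went from 84.9% to 66.8%. Past 2-fold, 0 members were higher, against 9.26% of genes, or lower, against 12.3%. The median of all genes was -0.17 in this comparison and that of the members -0.21. Hspa5 was at 0.12 (-0.03 to 0.27), Hsp90b1 at -0.19 (-0.36 to -0.02), Pdia6 at -0.37 (-0.69 to -0.06), Xbp1 at -0.38 (-0.69 to -0.08) and Atf4 at 0.27 (0.07 to 0.48). In Rad21-/- cells, 1 of 7 was higher, against 15.3% of 5775 genes, and 0 were lower, against 12.5%. The higher member was Hspa5, 1.51-fold above untreated (0.60, 0.42 to 0.77), and it was inside the threshold when any of 4 pools was left out, at 0.55 to 0.56. Pdia6 was at 0.39 (0.07 to 0.71), Atf4 at 0.40 (0.14 to 0.65), and Calr at 0.11 (-0.05 to 0.28). Ddit3 was at -0.55 (-1.05 to -0.07) and Xbp1 at -0.46 (-0.81 to -0.11), both inside the threshold. Ddit3 passed it when any of 4 pools was left out, at -0.62 to -0.84, and Xbp1 when 1 pool was left out, at -0.61. Past 2-fold, 0 members were higher, against 7.65% of genes, or lower, against 5.04%. The median was 0.12 over the members and 0.00 over all genes.

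**Figure D5:**
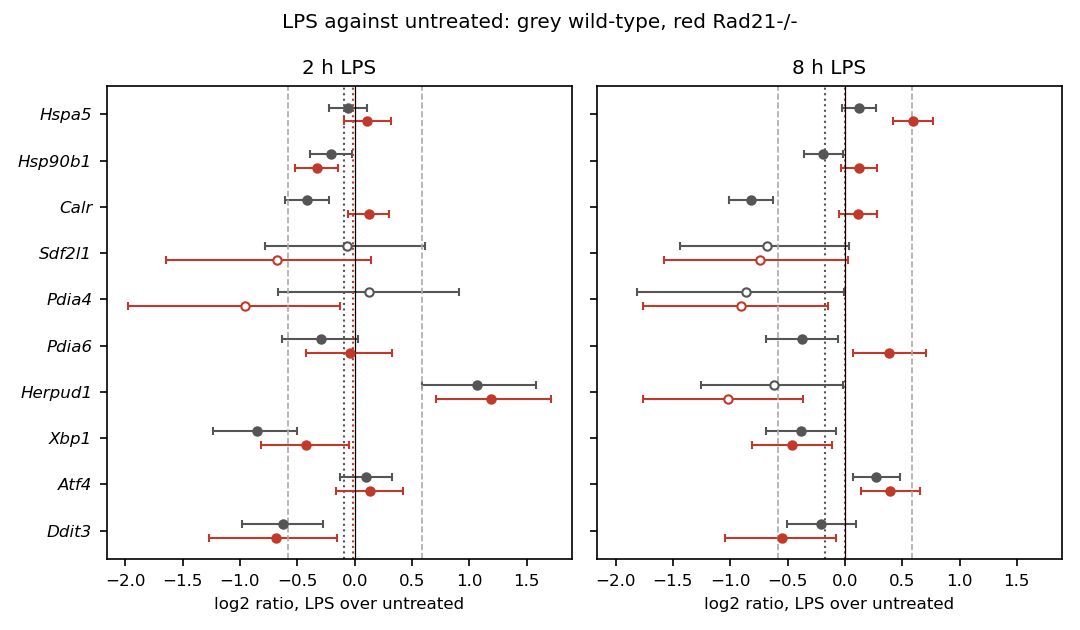
Log2 ratio of LPS-treated over untreated CPM at 2 and 8 h in wild-type (grey) and Rad21-/- cells (red), with exact 95% counting intervals and 1 sample per group. Open points had under 100 UMIs over both samples, dashed lines mark 1.5-fold and dotted lines the median of all genes in each genotype. At 8 h Hspa5, Calr and Pdia6 had intervals that did not overlap between genotypes, and at 2 h Herpud1 was above 1 in both.

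The difference between both genotypes' LPS ratios was taken for each member. At 8 h it was beyond counting error for 4 members, with Rad21-/- above wild-type cells in each. It was 0.93 for Calr (0.68 to 1.18), 0.76 for Pdia6 (0.32 to 1.19), 0.47 for Hspa5 (0.25 to 0.70) and 0.31 for Hsp90b1 (0.08 to 0.54). With each ratio centred on the median of all genes, which was -0.17 in wild-type and 0.00 in Rad21-/- cells, these were 0.75 (0.50 to 1.01), 0.58 (0.15 to 1.01), 0.30 (0.07 to 0.52) and 0.13 (-0.10 to 0.36), so that the difference of Hsp90b1 was then within counting error. The other 6 members had differences between -0.41 and 0.12 with intervals that covered 0, and the widest of these, for Pdia4, ran from -1.15 to 1.05. At 2 h the difference was beyond counting error for Calr, at 0.54 (0.28 to 0.79). With the wells above 25000 UMIs included it was 0.21, from ratios of -0.12 in wild-type and 0.09 in Rad21-/- cells. Centred on all genes, the 2 h difference of Calr was 0.46 (0.20 to 0.72), and that of Pdia4, from under 100 UMIs per comparison, was -1.16 (-2.27 to -0.06). Each of these differences rests on 4 samples without replicates.

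The members were set beside 111 other genes in 6 lists, of which 71 to 79 genes had enough UMIs to be compared. The lists cover ER genes and targets of the stress response, and the last holds 11 heat shock proteins of the cytosol and mitochondria. Like the members, they were chosen with earlier results of these data known. The list of ATF4 and CHOP targets had 5 of 10 genes compared lower in untreated Rad21-/- than in wild-type cells and 0 higher, against 10.2% and 5.12% of all genes, with a median of -0.58. Among them Atf3, a stress-induced transcription factor, was at 104 CPM in wild-type and 33.4 CPM in Rad21-/- cells (-1.62, -2.11 to -1.18). At 2 h 1 of 10 was lower, close to the 9.36% of all genes. This was Gars, a glycyl-tRNA synthetase (-1.0004, -1.64 to -0.42). The 2 h median of the list was -0.38, where that of all genes was 0.06. At 8 h 3 of 13 were lower and 0 higher, against 11.1% and 19.1% of all genes. The median was 0.17 and that of all genes 0.19. The lower genes at 8 h included Atf3 (-1.18, -1.40 to -0.96) and Slc3a2, the heavy chain of amino acid transporters (-1.19, -1.50 to -0.90).

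Genes of ER-associated degradation were compared next. In Rad21-/- cells 1 of 12 was higher in the untreated state, against 5.12% of all genes, 3 of 9 at 2 h, against 10.1%, and 7 of 12 at 8 h, against 19.1%. Of these genes 0 were lower at each time, against 10.2%, 9.36% and 11.1%. The medians were 0.18, 0.34 and 0.62, and those of all genes -0.02, 0.06 and 0.19. Edem1, which directs misfolded glycoproteins to degradation, was at 130, 100 and 57.2 CPM in wild-type and at 245, 248 and 176 CPM in Rad21-/- cells. Its genotype ratios were 0.91 (0.66 to 1.17), 1.30 (1.00 to 1.63) and 1.61 (1.28 to 1.98). Os9, a lectin of the same route, was at 0.95 (0.47 to 1.48) at 2 h. Herpud1, the member of this route, was at or below wild-type levels at the same times, as given above.

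Regulators of the translational arm differed as well. Ppp1r15a, which encodes GADD34, the inducible subunit of the phosphatase that restores translation, was 6.99-fold higher at 2 h of LPS in wild-type cells, from 19.4 to 139 CPM. At 2 h it was lower in Rad21-/- cells, at 64.9 CPM (-1.09, -1.51 to -0.71). Ppp1r15b, which encodes the constitutive subunit, was 4.66-fold higher at 8 h in wild-type cells (53.3 to 251 CPM) and stood at 89.4 CPM in Rad21-/- cells at that time (-1.48, -1.77 to -1.22). Among the sensors and signalling genes, 1 of 3 compared was lower in untreated Rad21-/- cells, 1 of 4 at 2 h and 2 of 5 at 8 h, against 10.2%, 9.36% and 11.1% of all genes. At each time 0 were higher, against 5.12%, 10.1% and 19.1%. These counts rest on few genes. Atf6, a sensor that is itself a transcription factor, was 1.81-fold lower at 2 h than in untreated wild-type cells (-0.85, -1.33 to -0.42).

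The wider set of ER chaperones and folding enzymes had 0 of 18 genes higher and 7 lower at 8 h of LPS in wild-type cells (median -0.55), against 15.3% and 25.3% of all genes. In Rad21-/- cells 0 of 19 were higher and 2 lower (median -0.13), against 15.3% and 12.5%. At 8 h 6 of 18 were higher in Rad21-/- than in wild-type cells, against 19.1% of all genes, and 0 were lower, against 11.1%, with a median of 0.39, where the median of all genes was 0.19. Erp29, an ER luminal folding factor, was at 325, 243 and 102 CPM in wild-type and at 408, 339 and 205 CPM in Rad21-/- cells. It was lower at 8 h in both genotypes, 3.19-fold in wild-type (-1.67, -1.95 to -1.42) and 1.99-fold in Rad21-/- cells (-0.99, -1.18 to -0.81). Genes of translocation, glycosylation and ER export had 10 of 24 lower and 1 higher at 8 h in wild-type cells, against 25.3% and 15.3% of all genes. In Rad21-/- cells 1 of 25 was lower and 2 were higher at 8 h, against 12.5% and 15.3%. Between genotypes at 8 h, 5 of 24 of them were higher and 2 lower in Rad21-/- cells, against 19.1% and 11.1%. In untreated Rad21-/- cells 2 of 25 were lower and 0 higher, against 10.2% and 5.12%. These genotype counts were near the shares of all genes. The lower untreated genes included Sec61g, a subunit of the translocation channel (-0.86, -1.33 to -0.42). Of the heat shock proteins outside the ER, 3 of 7 were higher in Rad21-/- than in wild-type cells at 8 h, against 19.1%. Of the same 7 genes 0 were lower, against 11.1%. Hspd1, the mitochondrial chaperonin, was the highest of these at 1.59 (1.09 to 2.18).

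The LPS comparisons of the lists also held genes far past the threshold in both genotypes. Atf3 was 3.52-fold higher at 2 h in wild-type (1.81, 1.55 to 2.10) and 9.40-fold higher in Rad21-/- cells (3.23, 2.85 to 3.69), from 33.4 to 319 CPM in the latter. At 8 h it was 3.22-fold and 4.38-fold above untreated. Nupr1, a small stress-induced chromatin protein, was 2.81-fold higher at 2 h (1.49, 1.19 to 1.80) and 2.48-fold higher at 8 h (1.31, 1.02 to 1.62) in Rad21-/- cells. Sars, a seryl-tRNA synthetase, was 2.99-fold lower at 8 h in wild-type (-1.58, -2.02 to -1.18) and 1.92-fold lower in Rad21-/- cells (-0.94, -1.35 to -0.55). Over all 6 lists, 7 of 75 genes were higher and 29 lower at 8 h in wild-type cells, against 15.3% and 25.3% of all genes. In Rad21-/- cells 10 of 79 were higher and 4 lower, against 15.3% and 12.5%.

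Co-variation of the members between cells of 1 sample was weak. Over 45 pairs, Spearman's rho of thinned counts had a median between 0.01 and 0.05 in the 6 samples, and the highest single value was 0.30, for Hspa5 and Pdia6 in Rad21-/- cells at 8 h. Cells of a sample share that sample's source, and most counts were 0 or 1 for the lower genes. Of 1651 genes compared with Hspa5, the 3 with the highest mean rho outside the members were Pdia3 (0.13), Rrbp1 (0.12) and Gm28037 (0.09). Among the members, Hsp90b1 ranked 3, Pdia6 4, Calr 5, Xbp1 249 and Atf4 1206 of the 1651. The mean rho was 0.04 for Xbp1 and -0.02 for Atf4. Correlations of this size in sparse counts are given as a description.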

How the data were processed

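Wild-type and Rad21-/- macrophages were sorted singly into wells, and each of the 6 groups was 1 sample by its label. The authors assigned reads to pools and wells by barcode, mapped them with GEMTools 1.7.0 to GRCm38.p4 with Gencode M8, discarded wells with more than 15% spike-in or less than 60% mapped reads, and collapsed UMIs within an edit distance of 2. The deposited values are raw UMI counts for every gene in every cell, with no normalization. A filter for genes in at least 5% of cells is stated, but 5709 genes of the matrix lie below it. Rows were joined to RefSeq tables of GRCm38.p6 by symbol, and all 10 members matched.

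UMIs were summed per sample over wells of at most 25000 UMIs and divided by the sample's total. Ratios had 1 UMI added and were compared for genes with at least 100 UMIs over both samples. Thinning drew 3800 UMIs per cell, the largest multiple of 100 that kept 80% of the cells of every sample. No doublet caller was run, since cells were sorted singly. Intervals at 95% are exact (Poisson, conditional binomial, Clopper-Pearson), those of a difference of shares are Newcombe's, and those of a difference of log2 ratios are normal approximations to counting error. Beside 0 cells stands the share that 3 counts would give. UMIs correct for amplification, so intervals and limits cover counting error only. The steps were tested on simulated counts. Python 3.11.15 with numpy 2.4.6, pandas 2.3.3, scipy 1.17.1 and matplotlib 3.10.9 was used.

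The members and lists were chosen with earlier results of these data known. Named genes are the 10 members, in each comparison up to 2 list genes with the highest and 2 with the lowest ratio past 1.5-fold, the 3 genes outside the members with the highest rho with Hspa5, Rad21, Tnf and Cxcl1 as checks and the markers that counts needed. One list gene that this rule names is not reported here. The alternatives were 2-fold calls, all wells, equal weight of cells or pools, thinning, centring, CPM without the 100 most abundant genes, no minimum of UMIs, at least 2 UMIs per positive cell and each pool left out. Cells without cycling markers, Ddit3 without its highest cells and centred or all-well values of the difference between LPS ratios were added after the data were seen.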

Additional observations from a re-analysis of the deposited data

Results flagged for a closer look

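Members are listed here where a ratio had opposite signs in the 2 settings compared. Each setting was 1 sample per group, so the difference was not tested, and values are log2 differences.

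The effect of LPS differed in sign between genotypes, as Rad21-/- minus wild-type, for Hspa5 at 2 h by 0.17, for Calr at 2 h by 0.54 and at 8 h by 0.93, for Hsp90b1 at 8 h by 0.31 and for Pdia6 at 8 h by 0.76. Of these, both ratios were beyond counting error for Pdia6, at -0.37 in wild-type and 0.39 in Rad21-/- cells. The effect at 8 h against 2 h differed in sign for Hspa5 in wild-type cells by 0.18 and in Rad21-/- cells for Hsp90b1 by 0.45 and Pdia6 by 0.43.

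The effect of genotype differed in sign between untreated and 2 h cells for Calr by 0.54, and between untreated and 8 h cells for Hsp90b1 by 0.31, Calr by 0.93 and Pdia6 by 0.76. Between 2 and 8 h it differed in sign for Hsp90b1 by 0.44 and Pdia6 by 0.50. Both ratios were beyond counting error for Calr at 2 and at 8 h against untreated, and for Hsp90b1 at 8 h against 2 h. The median of all genes was 0.19 between genotypes at 8 h, and centred on it Hsp90b1 was at -0.01 and Pdia6 at -0.03, so that their signs no longer differed from those of untreated cells. At 2 h Calr was at 0.02 with the deepest wells included and split 2 to 2 over library pools. Centred on all genes, Hspa5 had the same sign in both genotypes at 2 h (0.03 and 0.13). Because these comparisons share samples, the values are not independent of each other.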

How the results depend on the processing

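No paired analysis was possible because each group is 1 sample. Of the ratios of single members under the other settings, 469 moved by less than their counting error and 21 by more, and with 1 pool left out 859 moved by less and 1 by more. No member that was called reversed its direction.

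Counts of members called that changed by more than 1.5 times were as follows, and the cause was not tested beyond the setting itself. With a 2-fold threshold, the members lower were 0 in wild-type cells at 2 h and at 8 h and 0 in Rad21-/- cells at 2 h, the members higher were 0 in Rad21-/- cells at 8 h, and between genotypes 1 was lower untreated, at 2 h and at 8 h (Ddit3) and 0 were higher at 8 h. With all wells, 0 were lower in wild-type cells at 2 h and 0 higher between genotypes at 8 h. With ratios centred on all genes, 1 was lower in wild-type cells at 2 h, 0 were higher between genotypes at 8 h, and the median there was -0.54. With no minimum of UMIs, 4 were lower in wild-type cells at 8 h, 3 in Rad21-/- cells at 2 h, 3 at 8 h (median -0.17) and 5 between genotypes at 2 h, since Pdia4, Sdf2l1 and Herpud1 then enter. The genotype count lower at 8 h was then 3, against 2. The members that enter rest on few UMIs. In wild-type cells at 8 h against untreated these were 18 against 31 for Pdia4, 28 against 42 for Sdf2l1 and 39 against 56 for Herpud1. With thinned cells, 0 were lower in Rad21-/- cells at 2 h, 2 were higher at 8 h, and the genotype median at 8 h was -0.17. With equal weight per cell, 1 was lower in Rad21-/- cells at 8 h and 0 higher between genotypes at 8 h. Without the 100 most abundant genes, 0 were higher and 1 lower in Rad21-/- cells at 8 h. In cells without a cycling marker, 1 was lower in wild-type and 0 in Rad21-/- cells at 2 h, and 1 between genotypes at 8 h. Shares of all genes called are given above for the main setting and the 2-fold threshold. They are not given for the other settings or with 1 pool left out, so those counts only describe the members.

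With 1 pool left out, wild-type cells had 1 to 1 members higher and 1 to 2 lower at 2 h (median -0.35 to -0.14) and 0 to 0 higher and 1 to 1 lower at 8 h (-0.30 to -0.13). Rad21-/- cells had 1 to 1 higher and 0 to 2 lower at 2 h (-0.25 to 0.07) and 0 to 1 higher and 0 to 2 lower at 8 h (0.05 to 0.19). Between genotypes, 3 to 4 were lower untreated (-0.60 to -0.43), 2 to 3 at 2 h (-0.37 to -0.24), and 2 to 3 at 8 h with 0 to 1 higher (-0.40 to -0.29). The untreated genotype call of Pdia6 was lost without 1 of 3 pools, at -0.40 without a pool of 47 and 47 cells. The 2 h genotype call of Hspa5 was lost without a pool of 45 Rad21-/- and 41 wild-type cells, at -0.56, and the 8 h call of Calr without a pool of 46 and 44 cells, at 0.58. Between genotypes at 8 h, Xbp1 became called lower when any of several pools was left out. The furthest value was -0.72, without a pool of 44 Rad21-/- and 48 wild-type cells. In Rad21-/- cells at 2 h, the call of Ddit3 was lost without an untreated pool of 47 or 28 cells (-0.58 and -0.56), and Xbp1 was called without a 2 h pool of 45 cells (-0.68). Depth limits Pdia4 and Sdf2l1, which had under 100 UMIs in every comparison.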
